A study of Arabidopsis thaliana with 36 samples.

Results

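Leaves of the Arabidopsis thaliana ecotype Col-0 (Columbia) that had spent 240 min at 500 μmol m-2 s-1 were compared with leaves of the same ecotype taken at 0 min, before the light was raised. The comparison rests on 3 libraries a side, which are 6 of the 36 libraries of the series, and on the 13817 of 37336 genes that exceeded 7 RPKM in 1 or more libraries. RPKM is a read count corrected for the length of the gene and by a divisor set for each library, and 7 is the floor in the study's methods. Both groups were wild type and came from hydroponic plants grown at a PFD (photon flux density) of 120 μmol m-2 s-1, with days and nights of equal length. Each library held RNA of a single fully expanded leaf. The same 3 plants gave a leaf at each of 6 times up to 240 min, with the whole plant enclosed in a gas exchange chamber, and the series holds the same course for the ecotype WS (Wassilewskija). In this series every leaf after 0 min came from raised light. Light, time of day, repeated leaf removal and the stay in the chamber therefore cannot be told apart in its libraries.

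Several kinds of programme are known to move leaf transcripts over a few hours of light. The circadian clock is a loop in which MYB-like factors of the morning (CCA1 and LHY) and pseudo-response regulators of the day and evening (the PRR family, with TOC1) repress each other, so that genes peak at set hours. Strong light changes the redox state of chloroplasts, the supply of sugars and the water relations of the leaf, and genes of photosynthesis, starch, antioxidants and stress hormones are known to respond. Jasmonates, hormones made from lipids of the chloroplast, act in wounded and stressed leaves, and leaf iron is held mostly in chloroplasts, where ferritins store it.

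The 6 libraries had 21.9, 31.8 and 14.8 M reads in genes at 240 min and 30.4, 22.4 and 24.6 M at 0 min, within the 7.35 to 41.7 M of the whole series. Each of the 6 lay nearest to its own group, and correlations of log2(RPKM + 1) between libraries of a group were 0.930 to 0.950 at 240 min and 0.949 to 0.978 at 0 min. The libraries of a group were not alike in every gene group. Replicate 3 of 240 min stood nearer to 0 min than replicates 1 and 2 in many clock genes, replicate 1 of 240 min was the lowest in most photosynthesis genes and in VSP1, VSP2 and LOX2, and replicate 2 of 0 min was the lowest of its group in most iron genes. Values are given in the order of replicates 1, 2 and 3, and results that rest on 1 of these libraries are given without it. Summed over 6 mesophyll markers the libraries had 16764 to 32065 RPKM at 240 min and 41083 to 58223 RPKM at 0 min. The 4 epidermis markers had 102 to 357 RPKM at 240 min and 241 to 342 RPKM at 0 min, and the 6 guard cell markers had 26.7 to 45.1 RPKM at 240 min and 26.5 to 32.1 RPKM at 0 min. Of the 5 root markers PIN2, COBL9 and EXPA7 were at 0 at both times, and the flower and seed markers summed to no more than 0.87 and 1.13 RPKM. The 4 markers of senescing leaves had 7.10 to 108 RPKM at 240 min and 12.5 to 36.7 RPKM at 0 min, with SAG12 at 0. In bulk leaf RNA, fewer cells of a type and less RNA per cell cannot be told apart.

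At 240 min 2349 genes (17.0% of the 13817 tested) were higher than at 0 min and 1807 (13.1%) were lower, so that 30.1% had changed, with an adjusted p under 0.05 from limma on log2(RPKM + 1), a 2-sided test with Benjamini-Hochberg adjustment. The median log2 difference was 1.11 among the higher genes, -1.12 among the lower genes and 0.04 over all genes tested. Of the genes that rose, 640 had a mean over 4 times that of 0 min, and 225 had been under 1 RPKM on average at 0 min. Of those that fell, 340 had a mean lower by more than a factor of 4, and 54 were under 1 RPKM on average at 240 min. The median gene that rose had 19.3 RPKM at 240 min and 7.12 RPKM at 0 min, and the median gene that fell had 11.6 RPKM at 240 min and 27.0 RPKM at 0 min. All 3 values at 240 min lay above all 3 at 0 min in 3869 genes (28.0%) and below them in 2975 (21.5%). Among the called genes this held for 2289 higher and 1712 lower ones, and the groups overlapped in 155. The split between higher and lower genes depended on the scaling: with every library set to the same sum of RPKM (TPM) it was 3154 higher and 1241 lower, or 71.8% of the called genes higher in place of 56.5%, and the median of all genes moved up by 0.172 on the log2 scale. The TPM setting takes out the scaling between libraries that the deposited values carry. Beside each gene, log2 stands for the difference of 240 min minus 0 min on the log2(RPKM + 1) scale ± its SE, and the difference without a library is given where it moved the fold change by more than 1.5 times. Without 240 min replicate 1 there were 1703 higher and 1104 lower genes. A gene that passed the floor only through the group in which it was high had to differ, so shares of a list are shares of its members tested. The counts of each list below stand beside the 17.0% of all genes that rose and the 13.1% that fell.

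**Figure D1:**
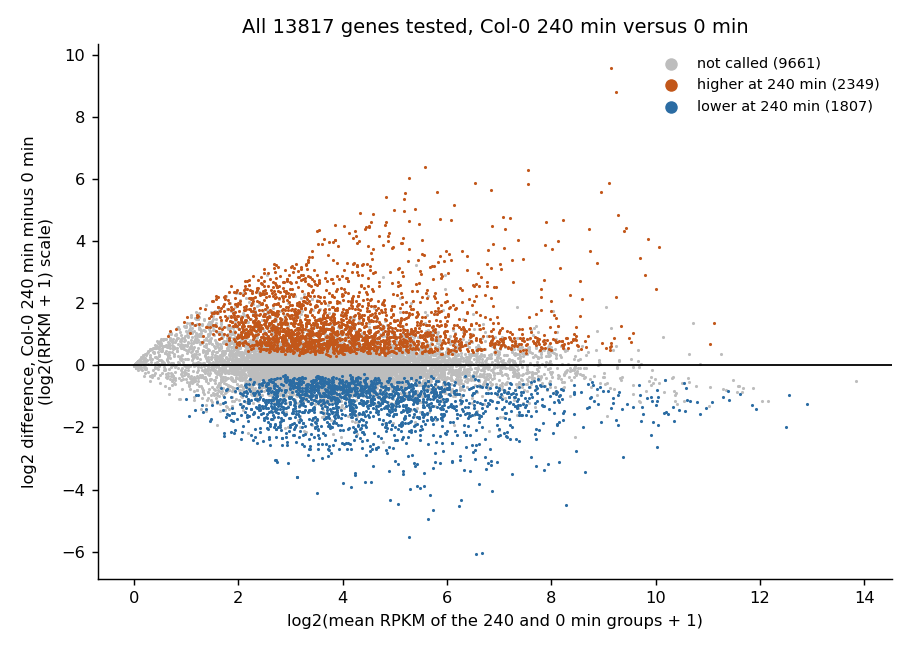
Difference between 240 and 0 min on the log2(RPKM + 1) scale (vertical) against log2 of the mean RPKM of both groups plus 1 (horizontal) for the 13817 genes tested, with 2349 higher and 1807 lower genes in colour and the 9661 others in grey. The highest points are VSP1 and VSP2, and genes that fell reach the most abundant end of the axis.

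Most clock genes of the morning were low at 240 min and most of the day and evening were high. Of the 12 morning factors, all of which passed the floor, 9 fell and 0 rose (median log2 difference -3.13), beside 13.1% of all genes that fell. Of 15 tested members among 16 day and evening genes, 10 rose, beside 17.0% of all genes, and 2 fell (median 2.26), the last count being 1 without 240 min replicate 1 or 0 min replicate 3. All 4 photoperiod factors tested, of a list of 7, fell (median -2.45). The counts in WS were 9 of 12 morning factors lower and 10 of 15 day and evening genes higher. No member of these lists passed the test of a different response between the ecotypes, which called 0.0941% of all genes. LHY, the MYB-like repressor that peaks at dawn, had 0.340, 1.02 and 2.99 RPKM at 240 min, against 203, 54.8 and 299 RPKM at 0 min (log2 -6.09 ± 0.83, adjusted p = 4.97e-06). LHY differed by -6.81 without 0 min replicate 2. Its partner CCA1 had 3.56, 9.58 and 37.0 RPKM at 240 min, against 225, 128 and 289 RPKM at 0 min (log2 -4.06 ± 0.54, adjusted p = 3.22e-06). CCA1 differed by -3.35 without 240 min replicate 1 and -4.88 without 240 min replicate 3. In both genes every leaf at 240 min was below every leaf at 0 min, and replicate 3 kept the most transcript at 240 min. RVE1, a MYB-like factor that links the clock to auxin, had 0.0900, 0.600 and 3.57 RPKM at 240 min, against 35.1, 15.3 and 35.2 RPKM at 0 min (log2 -3.79 ± 0.50, adjusted p = 2.83e-06). RVE1 differed by -4.39 without 240 min replicate 3. RVE8 and RVE4, MYB-like activators of evening genes, fell as well. RVE8 had 2.25, 3.22 and 14.7 RPKM at 240 min, against 68.4, 28.3 and 78.1 RPKM at 0 min (log2 -3.18 ± 0.51, adjusted p = 3.55e-05). RVE8 differed by -3.88 without 240 min replicate 3. RVE4 had 17.1 ± 8.05 RPKM at 240 min, against 59.0 ± 5.02 RPKM at 0 min (mean ± SD, n = 3, log2 -1.84 ± 0.26, adjusted p = 8.86e-06).

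The LNK proteins are coactivators that RVE8 brings to the genes it turns on, and all 4 fell. LNK2 had 19.4, 31.1 and 81.6 RPKM at 240 min, against 429, 246 and 437 RPKM at 0 min (log2 -3.25 ± 0.38, adjusted p = 5.91e-07). LNK3 had 6.20, 10.02 and 31.5 RPKM at 240 min, against 139.8, 144 and 142 RPKM at 0 min (log2 -3.38 ± 0.38, adjusted p = 3.35e-07). LNK3 differed by -4.0 without 240 min replicate 3. LNK1 and LNK4 were lower by 66.3% and 85.9% in mean RPKM (log2 differences -1.58 at adjusted p = 4.02e-04 and -3.07 at adjusted p = 1.47e-06, the last with a difference of -3.70 without 240 min replicate 3). The remaining morning factors RVE2, RVE6 and RVE7 were not past the test, with log2 differences of -0.79 at adjusted p = 0.107, -0.69 at adjusted p = 0.222 and -0.13 at adjusted p = 0.870, and their values overlapped between the times. RVE2 passed without 0 min replicate 2. ASG4, a MYB-like gene related to CCA1 and LHY, was among the 10 largest falls of all genes, with 0.220, 0.50 and 3.91 RPKM at 240 min, against 57.1, 11.3 and 101 RPKM at 0 min (log2 -4.33 ± 0.72, adjusted p = 5.92e-05). ASG4 differed by -5.21 without 0 min replicate 2, -3.69 without 0 min replicate 3 and -4.95 without 240 min replicate 3. The DOF factors CDF1 and CDF2, repressors of flowering genes, were at 10.95 ± 6.36 RPKM at 240 min, against 60.9 ± 10.5 RPKM at 0 min for CDF1 (log2 -2.50 ± 0.39, adjusted p = 2.50e-05) and at 0.537 ± 0.257 RPKM at 240 min, against 7.18 ± 1.65 RPKM at 0 min for CDF2 (log2 -2.40 ± 0.30, adjusted p = 1.39e-06). COL2, a CONSTANS-like B-box gene, had 1.0, 2.77 and 17.3 RPKM at 240 min, against 109, 73.4 and 96.0 RPKM at 0 min (log2 -4.16 ± 0.61, adjusted p = 1.12e-05). COL2 differed by -3.48 without 240 min replicate 1 and -5.08 without 240 min replicate 3.

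Promoters of 3 clock genes are shown for the genes that rose, since the evening element AAAATATCT, the site that CCA1, LHY and RVE factors bind, is known from genes of this phase. They are the 300 bases before the annotated start of GRP7, PRR5 and TOC1 (sequence from RefSeq, assembly TAIR10.1, 5′ to 3′ on the strand of the gene), with each match to AAAATATCT or to its reverse complement in capitals.
GRP7 (chr2:9266558-9266857, minus strand): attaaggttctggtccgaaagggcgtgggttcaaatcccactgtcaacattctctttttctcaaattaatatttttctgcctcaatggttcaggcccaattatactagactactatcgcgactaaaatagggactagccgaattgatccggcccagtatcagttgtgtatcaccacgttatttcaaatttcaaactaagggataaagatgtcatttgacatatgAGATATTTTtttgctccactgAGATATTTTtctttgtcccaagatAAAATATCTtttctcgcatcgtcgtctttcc
PRR5 (chr5:8358547-8358846, minus strand): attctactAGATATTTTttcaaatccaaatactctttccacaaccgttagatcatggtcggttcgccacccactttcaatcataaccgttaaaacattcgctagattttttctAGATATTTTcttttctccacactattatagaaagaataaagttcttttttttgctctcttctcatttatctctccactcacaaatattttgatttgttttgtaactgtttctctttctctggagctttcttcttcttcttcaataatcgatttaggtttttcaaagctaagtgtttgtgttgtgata
TOC1 (chr5:24674663-24674962, plus strand): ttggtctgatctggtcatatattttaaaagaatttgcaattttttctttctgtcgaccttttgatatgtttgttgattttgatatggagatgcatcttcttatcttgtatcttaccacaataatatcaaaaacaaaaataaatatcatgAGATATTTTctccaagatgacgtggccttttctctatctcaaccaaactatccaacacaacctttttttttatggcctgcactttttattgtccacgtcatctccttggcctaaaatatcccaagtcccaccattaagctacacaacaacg
GRP7 held 3 matches, at 76, 55 and 31 bases before the gene start, PRR5 held 2, at 292 and 187 bases, and TOC1 held 1, at 151 bases. Such a match was in 6 of the 15 promoters of the day and evening list (40.0%) and in 1 of the 12 of the morning list (8.33%), against 417 of 13406 promoters of all genes tested (3.11%), 152 of 2324 of the genes that rose (6.54%) and 23 of 1769 of the genes that fell. A match is a description of the letters and not a bound site.

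PRR5, a pseudo-response regulator that represses CCA1 and LHY, had 54.3, 76.5 and 5.88 RPKM at 240 min, against 0.0900, 0.030 and 0.0200 RPKM at 0 min (log2 4.88 ± 0.61, adjusted p = 1.56e-06). PRR5 differed by 4.22 without 240 min replicate 2 and 5.97 without 240 min replicate 3. TOC1, the regulator of this family with the latest peak, had 25.6, 26.3 and 6.36 RPKM at 240 min, against 1.1, 1.55 and 1.38 RPKM at 0 min (log2 2.90 ± 0.39, adjusted p = 3.73e-06). TOC1 differed by 3.53 without 240 min replicate 3. PRR3, which stabilises TOC1 protein, had 15.5, 15.9 and 1.26 RPKM at 240 min, against 0.12, 0.050 and 0.0600 RPKM at 0 min (log2 2.99 ± 0.43, adjusted p = 1.01e-05). PRR3 differed by 3.96 without 240 min replicate 3. In all 3 genes replicates 1 and 2 of 240 min were close together and replicate 3 was the lowest, yet above each leaf of 0 min. ELF4 and ELF3, subunits of the evening complex that represses growth genes at dusk, also rose. ELF4 had 42.1, 34.6 and 3.11 RPKM at 240 min, against 0.290, 0 and 0.130 RPKM at 0 min (log2 4.03 ± 0.56, adjusted p = 6.45e-06). ELF4 differed by 3.42 without 240 min replicate 1 and 5.11 without 240 min replicate 3. ELF3 had 15.4, 16.2 and 7.54 RPKM at 240 min, against 0.75, 1.18 and 1.48 RPKM at 0 min (log2 2.66 ± 0.37, adjusted p = 5.18e-06). LUX, the DNA-binding subunit of that complex, was not past the test (log2 difference 0.61 at adjusted p = 0.429). GRP7, an RNA-binding protein under clock control that feeds back on its own transcript, had 2247, 1608 and 74.9 RPKM at 240 min, against 23.1, 23.2 and 56.6 RPKM at 0 min (log2 4.33 ± 0.80, adjusted p = 2.01e-04). GRP7 differed by 3.44 without 240 min replicate 1, 3.68 without 240 min replicate 2 and 5.88 without 240 min replicate 3. Its close relative GRP8 had 797, 642 and 212 RPKM at 240 min, against 64.7, 109 and 138 RPKM at 0 min (log2 2.26 ± 0.40, adjusted p = 1.26e-04). In replicate 3 GRP7 was only just above its highest value of 0 min, while replicates 1 and 2 were far above it.

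FKF1, a blue-light receptor that marks CDF proteins for breakdown, had 26.8, 27.6 and 0.290 RPKM at 240 min, against 0.0200, 0.0200 and 0 RPKM at 0 min (log2 3.32 ± 0.63, adjusted p = 2.64e-04), so replicate 3 was close to 0 min, and the call was lost when the 6 libraries were fitted alone. FKF1 differed by 2.58 without 240 min replicate 1, 2.56 without 240 min replicate 2 and 4.80 without 240 min replicate 3. GI, the protein that works with FKF1, had 28.0, 41.2 and 18.4 RPKM at 240 min, against 6.57, 3.05 and 13.5 RPKM at 0 min (log2 1.91 ± 0.43, adjusted p = 0.00128). ZTL, a receptor of the same family that targets TOC1, went the other way, with 13.5 ± 3.42 RPKM at 240 min, against 25.3 ± 2.48 RPKM at 0 min (log2 -0.89 ± 0.20, adjusted p = 0.00128). Between morning and evening genes, PRR9 had 8.06, 18.1 and 32.5 RPKM at 240 min, against 33.2, 46.6 and 70.9 RPKM at 0 min (log2 -1.45 ± 0.41, adjusted p = 0.00891). PRR9 lost its call without 0 min replicate 3 or 240 min replicate 1. PRR7, which peaks later than PRR9, had 52.4, 72.2 and 60.7 RPKM at 240 min, against 21.2, 41.1 and 14.2 RPKM at 0 min (log2 1.36 ± 0.37, adjusted p = 0.00573). PRR7 lost its call without 0 min replicate 3. The call of PRR9 was also lost when the 6 libraries were fitted alone. LKP2 and CHE were not past the test (log2 differences -0.26 at adjusted p = 0.360 and 0.60 at adjusted p = 0.471).

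**Figure D2:**
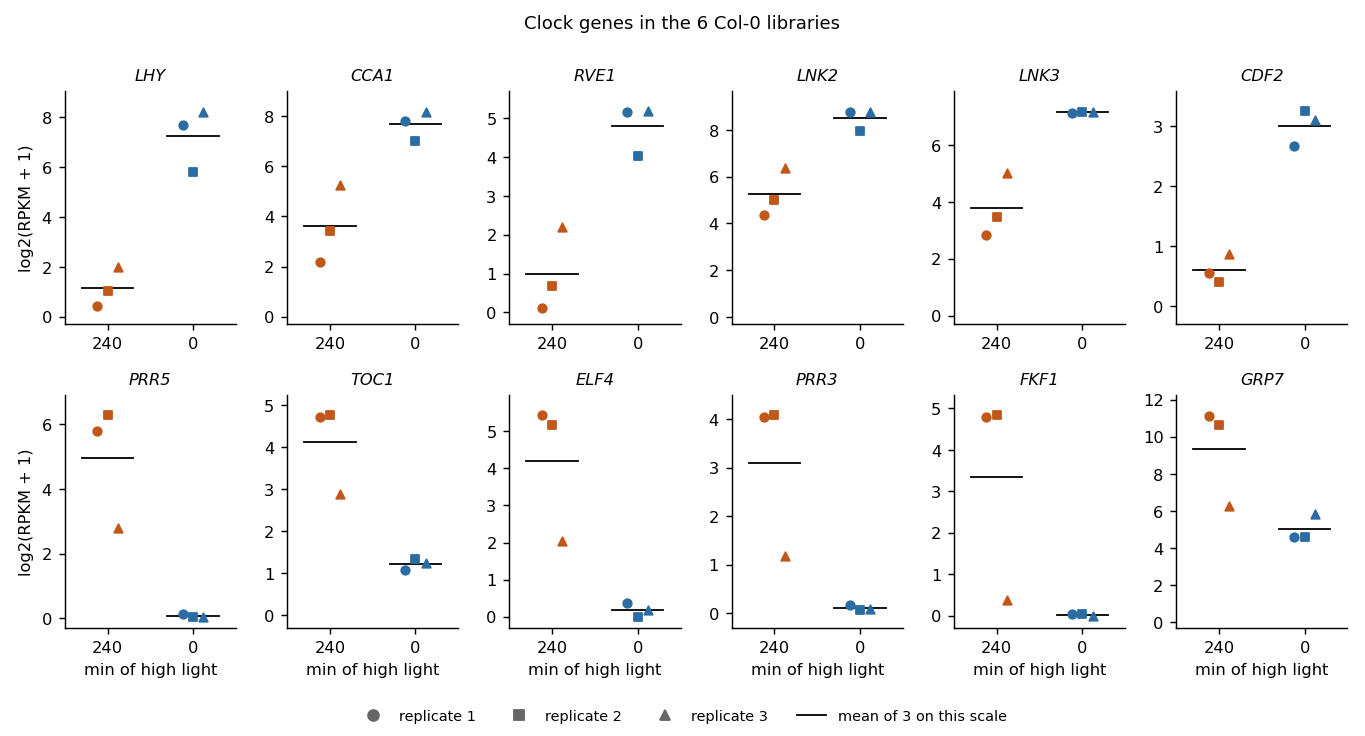
log2(RPKM + 1) of 12 clock genes in the 3 libraries of 240 min (left in each panel) and the 3 of 0 min (right), 1 point a library with the replicate number as its marker and a bar at the group mean. LHY, CCA1, RVE1, LNK2, LNK3 and CDF2 are low at 240 min and the other 6 are high, with replicate 3 of 240 min nearest to 0 min in every panel.

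Genes of jasmonate synthesis, and of the defences and storage proteins that jasmonate is known to induce, were among the largest rises. Of 29 tested members of a list of 30, 15 rose and 0 fell (median log2 difference 2.15, against 0.04 over all genes), and with any 1 of the 6 libraries left out 11 to 14 rose. In WS 7 rose. No member passed the test of a different response between the ecotypes, but that test called only 0.0941% of all genes, so this does not show a like response. The synthesis enzymes stood together. LOX2, the plastid lipoxygenase of the first step, had 1117, 2381 and 2488 RPKM at 240 min, against 156, 115 and 132 RPKM at 0 min (14.9-fold higher, log2 3.81 ± 0.58, adjusted p = 1.91e-05). AOS, the allene oxide synthase of the next step, had 431, 726 and 727 RPKM at 240 min, against 125, 166 and 125 RPKM at 0 min (log2 2.15 ± 0.65, adjusted p = 0.0128). AOC2, an allene oxide cyclase, had 1265, 1162 and 1155 RPKM at 240 min, against 30.8, 80.3 and 26.0 RPKM at 0 min (26.1-fold higher, log2 4.86 ± 0.76, adjusted p = 2.82e-05). OPR3, the reductase of the peroxisome, had 95.0, 99.8 and 77.1 RPKM at 240 min, against 9.08, 7.06 and 11.8 RPKM at 0 min (log2 3.17 ± 0.84, adjusted p = 0.00498). All 3 leaves at 240 min were above all 3 at 0 min in each of these genes, and AOC2 and OPR3 varied little among the leaves of 240 min. AOC1, AOC3 and AOC4 rose too, but AOC1 lost its call without any 1 of the 6 libraries other than 0 min replicate 2, and AOC3 lost its call without 0 min replicate 1, 0 min replicate 2 or 240 min replicate 1 and with voom. Since these copies are alike in sequence and the sources used here do not say how reads that match several genes were counted, the split among them is uncertain. The same holds for VSP1 and VSP2, KIN1 and KIN2, COR15A and COR15B, and the LHCB1 and RBCS families.

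VSP1 and VSP2, vegetative storage proteins of leaves, had the largest log2 differences of all genes. VSP1 had 435, 1565 and 1387 RPKM at 240 min, against 0.380, 0.330 and 0.180 RPKM at 0 min (log2 9.57 ± 1.01, adjusted p = 1.61e-07). VSP1 differed by 10.15 without 240 min replicate 1. VSP2 had 309.6, 1424 and 1884 RPKM at 240 min, against 1.47, 1.17 and 0.760 RPKM at 0 min (log2 8.80 ± 0.96, adjusted p = 2.66e-07). VSP2 differed by 9.60 without 240 min replicate 1. In both, replicate 1 of 240 min was the lowest of its group and still far above 0 min. PDF1.2, a plant defensin, had 508, 37.6 and 131 RPKM at 240 min, against 1.43, 2.37 and 1.44 RPKM at 0 min (log2 5.66 ± 1.14, adjusted p = 4.49e-04), with replicate 1 the highest, and JAZ1, a repressor of jasmonate responses that is itself induced by the hormone, had 118, 39.7 and 42.6 RPKM at 240 min, against 1.35, 2.53 and 4.02 RPKM at 0 min (log2 4.1 ± 0.87, adjusted p = 7.37e-04). PDF1.2 differed by 4.72 without 240 min replicate 1 and 6.58 without 240 min replicate 2. CORI3, which the annotation names a tyrosine transaminase family protein, was 55.6-fold higher, with 419, 1236 and 1253 RPKM at 240 min, against 14.6, 23.9 and 13.9 RPKM at 0 min (log2 5.60 ± 0.77, adjusted p = 5.10e-06). BAM5, a beta-amylase outside the chloroplast, had 114, 511 and 474 RPKM at 240 min, against 7.05, 6.02 and 1.55 RPKM at 0 min (log2 5.86 ± 0.76, adjusted p = 2.49e-06). BAM5 differed by 6.56 without 240 min replicate 1. BGLU18, a beta-glucosidase of the endoplasmic reticulum, had 693, 1500 and 1044 RPKM at 240 min, against 18.6, 12.9 and 19.4 RPKM at 0 min (log2 5.86 ± 0.60, adjusted p = 1.06e-07). NATA1, an acetyltransferase that acts on ornithine, had 27.2, 92.1 and 105 RPKM at 240 min and was listed at 0 in all 3 libraries of 0 min (log2 6.03 ± 1.18, adjusted p = 3.56e-04). NATA1 differed by 6.64 without 240 min replicate 1. The calls of NATA1 and PDF1.2 were lost when reads recovered from the RPKM steps were tested with voom weights. Also among the 10 largest rises was AT4G17470, an alpha/beta-hydrolase, with 113, 78.7 and 90.07 RPKM at 240 min, against 0.150, 0.190 and 0 RPKM at 0 min (log2 6.40 ± 0.89, adjusted p = 6.34e-06). AT4G30650, annotated as responsive to low temperature and salt, had 456, 521 and 139 RPKM at 240 min, against 3.31, 6.41 and 1.24 RPKM at 0 min (log2 6.28 ± 0.76, adjusted p = 9.46e-07). AT4G30650 differed by 6.88 without 240 min replicate 3. AT1G14250, a nucleoside phosphatase, had 141, 194 and 206 RPKM at 240 min, against 3.30, 2.97 and 0.650 RPKM at 0 min (log2 5.88 ± 1.02, adjusted p = 9.27e-05).

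The largest gains in RPKM were partly in other genes. DHAR1, a dehydroascorbate reductase that recycles ascorbate, had 881, 2032 and 2346 RPKM at 240 min, against 110.4, 83.7 and 94.0 RPKM at 0 min (18.3-fold higher, log2 4.07 ± 0.58, adjusted p = 8.54e-06). ARGAH2, an arginase, had 633, 1862 and 2099 RPKM at 240 min, against 125, 129.5 and 117 RPKM at 0 min (log2 3.44 ± 0.76, adjusted p = 0.00119). AT1G13930, annotated as oleosin-B3-like, had 1544, 2168 and 1445 RPKM at 240 min, against 280.4, 510.1 and 198 RPKM at 0 min (log2 2.47 ± 0.44, adjusted p = 1.26e-04). AT5G42530, annotated as an uncharacterized protein, was already abundant, with 3663, 2437 and 3489 RPKM at 240 min, against 1471, 1254 and 986 RPKM at 0 min (log2 1.37 ± 0.48, adjusted p = 0.0319). AT5G42530 lost its call without 0 min replicate 2, 0 min replicate 3, 240 min replicate 1 or 240 min replicate 3. Its call was also lost without a filter on low values and when Col-0 libraries were fitted alone.

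Some genes of salicylate signalling, WRKY factors and genes of the folding machinery of the endoplasmic reticulum (ER) were also higher. Of 13 tested salicylate and immune genes (list of 15), 7 rose and 0 fell (median 1.69), but the number that rose was 3 without 240 min replicate 1, 0 min replicate 2 or 0 min replicate 3 and 4 without 0 min replicate 1 or with voom. In WS 0 rose and 1 fell. No member passed the test of a different response between the ecotypes, which does not show a like response. PR2, a beta-1,3-glucanase of the pathogen response, had 626, 178 and 58.1 RPKM at 240 min, against 4.75, 6.09 and 7.47 RPKM at 0 min (log2 4.74 ± 1.24, adjusted p = 0.00480). PR2 differed by 3.88 without 240 min replicate 1 and 5.58 without 240 min replicate 3. SARD1, an activator of salicylate synthesis, had 14.7, 15.1 and 14.3 RPKM at 240 min, against 3.34, 1.48 and 4.64 RPKM at 0 min (log2 2.0 ± 0.54, adjusted p = 0.00617). SARD1 was even among the leaves of 240 min, while PR2 was spread over a range of 58.1 to 626 RPKM, with replicate 1 the highest. PR1, the best known marker of salicylate and chosen here after its values were seen, had 247, 2.51 and 0.0700 RPKM at 240 min, against 0, 0.10 and 0 RPKM at 0 min, so a single leaf carried it, and it was not past the test (adjusted p = 0.170). PR5 had 581, 124 and 111 RPKM at 240 min, against 43.5, 20.8 and 30.9 RPKM at 0 min (log2 2.68 ± 0.94, adjusted p = 0.0319), and its call was also lost without a filter on low values and with Col-0 libraries alone. PR5 lost its call without 0 min replicate 2, 0 min replicate 3 or 240 min replicate 1.

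Of 16 WRKY factors, which bind promoters of defence genes, 7 rose and 0 fell (median 1.54), and the number that rose was 4 without 0 min replicate 1, 240 min replicate 1 or 0 min replicate 2. WRKY54 had 33.7, 76.4 and 14.0 RPKM at 240 min, against 2.38, 0.650 and 1.45 RPKM at 0 min (log2 3.84 ± 0.70, adjusted p = 1.69e-04). WRKY54 differed by 3.25 without 240 min replicate 2 and 4.44 without 240 min replicate 3. WRKY11 had 14.8, 24.1 and 14.7 RPKM at 240 min, against 5.91, 6.43 and 6.62 RPKM at 0 min (log2 1.33 ± 0.31, adjusted p = 0.00168). WRKY60 had 5.37, 15.3 and 5.37 RPKM at 240 min, against 1.75, 1.12 and 2.09 RPKM at 0 min (log2 1.73 ± 0.41, adjusted p = 0.00215). Replicate 2 was the highest leaf of 240 min in all 3 of these WRKY genes, and no leaf of 240 min overlapped with 0 min. Of 9 NAC factors tested, 3 rose, among them ATAF2 with 37.3 ± 15.8 RPKM at 240 min, against 7.23 ± 0.363 RPKM at 0 min (log2 2.14 ± 0.52, adjusted p = 0.00245). NAC019 had 45.7, 7.36 and 44.9 RPKM at 240 min, against 0.480, 0.230 and 0.410 RPKM at 0 min (log2 4.26 ± 1.15, adjusted p = 0.00598), whose call was lost with voom. NAC019 differed by 5.08 without 240 min replicate 2. Of 17 fast-responding ERF and ZAT factors 2 rose, beside 17.0% of all genes. The number that rose was 0 without 240 min replicate 2 and 1 without 0 min replicate 1, 240 min replicate 1, 0 min replicate 2, 0 min replicate 3 or 240 min replicate 3 or with voom.

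Of 13 ER folding genes 9 rose and 0 fell (median 1.25). PDIL1-1, a protein disulfide isomerase, had 100.02, 86.8 and 50.9 RPKM at 240 min, against 8.07, 11.3 and 7.97 RPKM at 0 min (8.70-fold higher, log2 2.95 ± 0.54, adjusted p = 1.67e-04). Its relative PDIL1-2 was 6.33-fold higher (log2 2.40 ± 0.61, adjusted p = 0.00369). BIP1, the Hsp70 chaperone of the ER, had 142, 98.4 and 56.4 RPKM at 240 min, against 24.8, 29.0 and 34.0 RPKM at 0 min (log2 1.64 ± 0.43, adjusted p = 0.00486). CNX1 and CRT1A, calnexin and calreticulin, which hold unfolded glycoproteins, were 3.42-fold and 2.46-fold higher (log2 differences 1.69 at adjusted p = 0.00275 and 1.25 at adjusted p = 0.00337). In these 5 genes replicate 1 was the highest and replicate 3 the lowest leaf of 240 min, and the times did not overlap.

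Some genes known from the cold response were higher at 240 min. Of 12 members of the CBF and cold-regulated list 5 rose and 0 fell (median 1.38), and 1 member fell without 240 min replicate 2. COR15A, a protein that protects chloroplast membranes during freezing, had 600.3, 1928 and 1462 RPKM at 240 min, against 74.2, 46.7 and 45.9 RPKM at 0 min (23.9-fold higher, log2 4.43 ± 0.57, adjusted p = 2.03e-06). Its neighbour COR15B had 160.2, 539 and 80.1 RPKM at 240 min, against 8.37, 7.08 and 3.47 RPKM at 0 min (log2 4.78 ± 0.66, adjusted p = 5.19e-06). COR15B differed by 4.04 without 240 min replicate 2 and 5.40 without 240 min replicate 3. KIN1 and KIN2, small proteins of the cold and drought response, had 13.1, 114 and 37.7 RPKM at 240 min, against 2.12, 0.480 and 1.3 RPKM at 0 min, for KIN1 (log2 4.18 ± 0.81, adjusted p = 3.33e-04) and 931, 3083 and 799 RPKM at 240 min, against 250.4, 124 and 169.8 RPKM at 0 min, for KIN2 (log2 2.92 ± 0.49, adjusted p = 6.97e-05). KIN1 differed by 4.92 without 240 min replicate 1 and 3.41 without 240 min replicate 2. KIN2 differed by 2.3 without 240 min replicate 2. The call of KIN1 was lost with voom. CBF3, a DREB-type activator that binds the CRT element, had 7.91, 30.7 and 3.79 RPKM at 240 min, against 0.210, 0.220 and 0.170 RPKM at 0 min (log2 3.2 ± 0.64, adjusted p = 4.35e-04), while CBF1 and CBF2 were not past the test (log2 differences 0.49 at adjusted p = 0.422 and 1.03 at adjusted p = 0.225). CBF3 differed by 2.44 without 240 min replicate 2 and 3.81 without 240 min replicate 3. Replicate 2 was the highest leaf of 240 min in the 5 genes of the list that rose. The 300 bases before the start of COR15A are shown with the CRT core CCGAC, the part of the element read by CBF factors, or its reverse complement in capitals (RefSeq, TAIR10.1).
COR15A (chr2:17712331-17712630, minus strand): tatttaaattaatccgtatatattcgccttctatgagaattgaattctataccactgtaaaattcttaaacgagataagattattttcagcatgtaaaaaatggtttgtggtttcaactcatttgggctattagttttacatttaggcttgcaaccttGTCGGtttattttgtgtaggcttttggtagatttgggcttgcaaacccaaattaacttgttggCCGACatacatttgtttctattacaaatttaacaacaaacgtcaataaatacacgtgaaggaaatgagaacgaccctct
It held 2 cores, at 142 and 79 bases before the gene start. A core was in 4 of the 12 promoters of the list (33.3%), against 15.5% of 13406 promoters of all genes tested. Of 17 abscisic acid genes 2 rose and 2 fell, near the 17.0% and 13.1% of all genes, and the number that fell was 1 without 240 min replicate 1. RD29A, a protein induced by drought and cold, had 135, 519.9 and 114 RPKM at 240 min, against 19.9, 11.6 and 11.01 RPKM at 0 min (log2 3.77 ± 0.64, adjusted p = 6.56e-05). RD29A differed by 3.09 without 240 min replicate 2. CYP707A2, which breaks abscisic acid down, had 6.99 ± 2.71 RPKM at 240 min, against 0.280 ± 0.201 RPKM at 0 min (log2 2.6 ± 0.47, adjusted p = 1.61e-04). ABF3, a bZIP factor of its signalling, had 13.0 ± 7.10 RPKM at 240 min, against 54.2 ± 12.9 RPKM at 0 min (log2 -2.11 ± 0.54, adjusted p = 0.00402).

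Most listed genes of the iron deficiency response were lower at 240 min, and the ferritin genes FER1 and FER3 were higher. The list of 16 iron genes was drawn up after the results had been seen, so its count is a description. Of 13 members tested, 9 fell and 2 rose (median -2.45), and in WS 2 fell and 1 rose. None passed the test of a different response between the ecotypes, which does not show a like response. PYE, a bHLH factor of the iron deficiency response, had 2.17, 1.23 and 2.06 RPKM at 240 min, against 132, 6.65 and 85.8 RPKM at 0 min (log2 -4.0 ± 0.77, adjusted p = 2.81e-04). PYE differed by -3.21 without 0 min replicate 1 and -5.27 without 0 min replicate 2. BTS, the ubiquitin ligase that limits this response, had 6.27, 11.3 and 8.86 RPKM at 240 min, against 191, 18 and 86.5 RPKM at 0 min (log2 -2.83 ± 0.54, adjusted p = 2.62e-04). BTS differed by -2.09 without 0 min replicate 1 and -3.75 without 0 min replicate 2. OPT3, which loads iron into the phloem, had 11.7, 17.62 and 18.7 RPKM at 240 min, against 352, 41.9 and 218 RPKM at 0 min (log2 -3.16 ± 0.56, adjusted p = 1.28e-04). OPT3 differed by -2.54 without 0 min replicate 1 and -4.06 without 0 min replicate 2. In these 3 genes the leaves of 240 min were close together, while replicate 2 of 0 min was the lowest of its group yet above every leaf of 240 min. NAS4, a nicotianamine synthase, and FRO3, a ferric reductase of mitochondria, fell by 85.5% and 89.7% in mean RPKM (log2 differences -2.52 at adjusted p = 4.28e-05 and -2.54 at adjusted p = 0.00520), with FRO3 at -3.20 without 0 min replicate 2. BHLH100, a bHLH factor that iron deficiency induces, was listed at 0 in all 3 libraries of 240 min and had 8.29, 1.8 and 24.0 RPKM at 0 min (log2 -3.11 ± 0.61, adjusted p = 3.41e-04). BHLH100 differed by -3.93 without 0 min replicate 2 and -2.35 without 0 min replicate 3. FER1 and FER3, ferritins that store iron in plastids, were the members that rose. FER1 had 591, 658 and 286 RPKM at 240 min, against 17.0, 103 and 13.7 RPKM at 0 min (log2 4.0 ± 1.04, adjusted p = 0.00438). FER1 differed by 4.89 without 0 min replicate 2. FER3 had 138, 159 and 79.2 RPKM at 240 min, against 36.8, 21.6 and 29.2 RPKM at 0 min (log2 2.03 ± 0.44, adjusted p = 9.22e-04). The leaf with the most FER1 at 0 min, replicate 2, was the leaf with the least PYE, BTS and OPT3 at that time. FER4 and FRO2 were not past the test (log2 differences 1.06 at adjusted p = 0.258 and -0.44 at adjusted p = 0.229).

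Nucleolar genes for making ribosomes were mostly higher at 240 min. Of 15 nucleolar factors, 14 rose and 0 fell (median 1.06), the same counts as in WS (14 and 0). NUC1, the nucleolin that organises rRNA genes, had 449, 326 and 267 RPKM at 240 min, against 86.5, 125 and 87.1 RPKM at 0 min (3.49-fold higher, log2 1.78 ± 0.19, adjusted p = 1.57e-07). FIB2, a fibrillarin that methylates rRNA, had 119, 75.7 and 69.2 RPKM at 240 min, against 14.9, 20.4 and 16.7 RPKM at 0 min (5.06-fold higher, log2 2.25 ± 0.31, adjusted p = 5.42e-06). NOP5-1 and NOP56, core proteins of the particles that guide this methylation, had 64.6 ± 8.88 RPKM at 240 min, against 14.8 ± 4.95 RPKM at 0 min, for NOP5-1 (log2 2.08 ± 0.24, adjusted p = 6.45e-07) and 88.7 ± 22.4 RPKM at 240 min, against 34.3 ± 5.63 RPKM at 0 min, for NOP56, which was chosen after its values were seen (log2 1.33 ± 0.26, adjusted p = 3.42e-04). GAR1, a subunit of the particles that make pseudouridine, was 2.45-fold higher, and OLI2, a methyltransferase-like protein, was 2.70-fold higher (log2 differences 1.29 at adjusted p = 2.40e-05 and 1.36 at adjusted p = 7.72e-06). The times did not overlap in any of these 6 genes. The promoter of NOP56 is shown for the telo box AAACCCTA (in capitals, either strand), a short motif known from ribosome genes (300 bases before the start, RefSeq, TAIR10.1).
NOP56 (chr1:20986953-20987252, minus strand): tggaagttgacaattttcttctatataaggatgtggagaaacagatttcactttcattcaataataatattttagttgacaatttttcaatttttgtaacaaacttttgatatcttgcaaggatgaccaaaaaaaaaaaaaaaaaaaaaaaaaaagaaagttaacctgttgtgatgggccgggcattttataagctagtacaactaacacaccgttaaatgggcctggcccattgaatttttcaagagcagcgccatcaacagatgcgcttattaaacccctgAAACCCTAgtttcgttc
It held 1 match, 17 bases before the gene start. A telo box was in 5 of the 15 promoters of the nucleolar list (33.3%), against 563 of 13406 promoters of all genes tested, and the site II element TGGGCC in 8 of 15 (53.3%), against 18.8%. Ribosomal protein genes, picked by their product names after results had been seen, rose in 164 of 298 tested and fell in 2 (median 0.66), and the number that rose was 106 without 240 min replicate 1 and 109 without 0 min replicate 3. Of 41 tested genes with the word proteasome in their product name, picked in the same way, 19 rose and 0 fell (median 0.42). The number that rose was 12 without 240 min replicate 1 or 0 min replicate 3 and 29 with TPM. A match of the name does not make each of them a subunit of the proteasome.

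**Figure D3:**
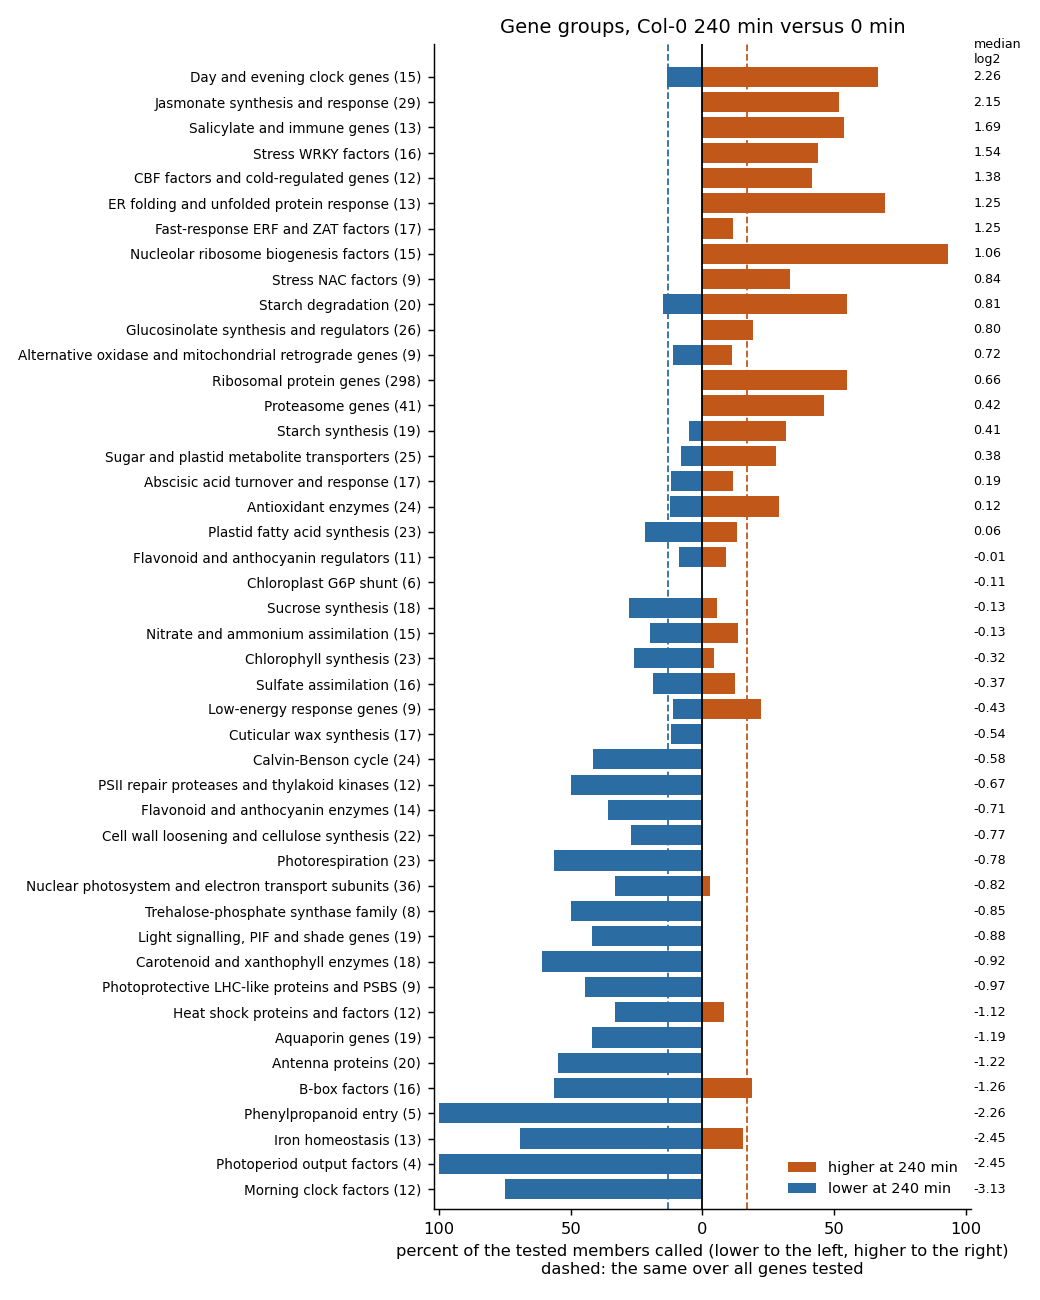
Share of tested members that were higher (to the right) and lower (to the left) at 240 min than at 0 min, in percent, for each gene group with 4 or more tested members, with the number tested beside the name and the median log2 difference at the right, by which groups are ordered. Dashed lines mark the shares over all genes tested, 17.0% higher and 13.1% lower. Nucleolar factors and ER folding genes reach farthest to the right, and phenylpropanoid entry, photoperiod and morning clock genes farthest to the left.

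Many nuclear genes of the photosynthetic apparatus were lower at 240 min, and many of these calls leaned on 1 leaf of 240 min. Of 20 tested antenna genes, which bind chlorophyll around the photosystems, 11 fell and 0 rose (median -1.22), but the number that fell was 1 without 240 min replicate 1, 4 without 0 min replicate 1, 5 without 0 min replicate 2 and 7 with TPM. In WS 19 fell. Of 36 subunits of the photosystems and electron transport 12 fell and 1, FNR2, rose (median -0.82), and the number that fell was 4 without 240 min replicate 1, 7 without 0 min replicate 1 and 20 without 240 min replicate 3. The number that rose was 0 without 240 min replicate 2 and 2 with TPM. Of 24 Calvin-Benson cycle genes 10 fell and 0 rose (median -0.58), and the number that fell was 6 without 240 min replicate 1. Replicate 1 was the lowest leaf of 240 min in most of these genes, and its part in the result is given by the counts without it. The mesophyll markers, which are themselves genes of photosynthesis, were lower in every library of 240 min than in any of 0 min, and the part of cell makeup in these falls was not tested. RCA, Rubisco activase, lost the most RPKM of all 13817 genes tested, with 1266, 2957 and 3210 RPKM at 240 min, against 9399, 8434 and 9335 RPKM at 0 min (72.6% lower, log2 -1.98 ± 0.27, adjusted p = 5.10e-06). Next in lost RPKM was LHCB1.3, an antenna protein of photosystem II, with 3663, 4553 and 5446 RPKM at 240 min, against 13088, 9630 and 9405 RPKM at 0 min (log2 -1.24 ± 0.45, adjusted p = 0.0387). LHCB1.3 lost its call without 0 min replicate 1, 0 min replicate 2, 0 min replicate 3, 240 min replicate 1 or 240 min replicate 2. PSBR, a subunit of that photosystem, had 2963, 4466 and 5149 RPKM at 240 min, against 9114, 7697 and 6933 RPKM at 0 min (log2 -0.95 ± 0.20, adjusted p = 7.99e-04). LHCB1.3 lost its call also without a filter on low values and with TPM, while that of PSBR was lost without a filter and when the 6 libraries were fitted alone. LHCB5, PSBO1 and RBCS2B were lower by 62.0%, 52.4% and 56.2% in mean RPKM, and each call was lost without 240 min replicate 1, those of LHCB5 and RBCS2B also without a filter on low values, and that of RBCS2B also without 0 min replicate 1 and when the 6 libraries were fitted alone. Calls that held with any 1 of the 6 libraries left out included LHCA5, a minor antenna protein of photosystem I (38.8% lower, log2 -0.70 ± 0.19, adjusted p = 0.00502), PGR5, which acts in cyclic electron flow (55.2% lower, log2 -1.19 ± 0.22, adjusted p = 1.75e-04), the ferredoxin FD1 (62.5% lower, log2 -1.42 ± 0.30, adjusted p = 8.54e-04) and GAPA1, a subunit of plastid glyceraldehyde 3-phosphate dehydrogenase (66.0% lower, log2 -1.57 ± 0.33, adjusted p = 7.66e-04).

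Photorespiration recovers the carbon lost when Rubisco binds oxygen, and 13 of 23 tested genes of it fell while 0 rose (median -0.78), and the number that fell was 7 without 240 min replicate 1 and 8 without 0 min replicate 1. GGT1, the glutamate:glyoxylate aminotransferase of peroxisomes, had 446, 722 and 713 RPKM at 240 min, against 1848, 1532 and 1796 RPKM at 0 min (63.7% lower, log2 -1.49 ± 0.16, adjusted p = 2.66e-07). HPR1, the hydroxypyruvate reductase, had 242, 609 and 528 RPKM at 240 min, against 1365, 1157 and 1270 RPKM at 0 min (log2 -1.56 ± 0.25, adjusted p = 3.92e-05). GLDP2, a P-protein of glycine decarboxylase, had 63.3, 146 and 149.7 RPKM at 240 min, against 462, 313 and 519.9 RPKM at 0 min (log2 -1.91 ± 0.29, adjusted p = 2.04e-05). CAT2, the catalase of leaf peroxisomes, had 195, 500.3 and 736 RPKM at 240 min, against 1711, 1023 and 1792 RPKM at 0 min (log2 -1.81 ± 0.37, adjusted p = 5.16e-04). In all 4 genes replicate 1 was the lowest leaf of 240 min, and the lowest leaf of 0 min was above the highest of 240 min.

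Some genes of pigment synthesis were lower at 240 min. Of 23 chlorophyll genes tested, 6 fell and 1 rose (median -0.32), and the number that rose was 0 without 0 min replicate 1, 240 min replicate 1, 240 min replicate 2 or 0 min replicate 3. Of 18 carotenoid and xanthophyll genes 11 fell and 0 rose (median -0.92), and the number that fell was 6 without 240 min replicate 1. CHLH, the large subunit of the chelatase that inserts magnesium, had 158, 274 and 382 RPKM at 240 min, against 1099, 859 and 934 RPKM at 0 min (log2 -1.91 ± 0.51, adjusted p = 0.00510). HEMA1, which makes the first committed precursor, had 94.3, 163 and 231 RPKM at 240 min, against 377, 653 and 303 RPKM at 0 min (log2 -1.46 ± 0.36, adjusted p = 0.00337). PSY, phytoene synthase, the entry into carotenoids, had 89.0, 114 and 128 RPKM at 240 min, against 315, 282 and 325 RPKM at 0 min (log2 -1.48 ± 0.31, adjusted p = 5.72e-04). ZEP, the epoxidase of the xanthophyll cycle, had 78.2, 166 and 176 RPKM at 240 min, against 431, 453 and 476 RPKM at 0 min (log2 -1.77 ± 0.25, adjusted p = 6.85e-06). BCH2, a beta-carotene hydroxylase, had 7.37, 6.0 and 18.5 RPKM at 240 min, against 122, 48.2 and 118 RPKM at 0 min (log2 -3.10 ± 0.64, adjusted p = 5.65e-04). HDR, the last enzyme of the plastid isoprenoid pathway, was 63.4% lower (log2 -1.52 ± 0.20, adjusted p = 2.64e-06). The groups did not overlap in any of these 6 genes. Of 9 LHC-like proteins, which bind pigments under light stress, 4 fell and 0 rose (median -0.97), among them OHP1 with 235 ± 81.9 RPKM at 240 min, against 587 ± 111 RPKM at 0 min (log2 -1.37 ± 0.28, adjusted p = 4.84e-04). SEP2 had 86.8 ± 35.3 RPKM at 240 min, against 254 ± 38.9 RPKM at 0 min (log2 -1.61 ± 0.31, adjusted p = 2.53e-04). ELIP1, ELIP2 and PSBS, the known early and quenching proteins of strong light, were not past the test at 240 min (log2 differences -1.45 at adjusted p = 0.122, -0.97 at adjusted p = 0.352 and -0.39 at adjusted p = 0.311), though ELIP1 passed as lower without 0 min replicate 2 or 240 min replicate 3. Of 12 genes for repair of photosystem II and for thylakoid kinases 6 fell and 0 rose (median -0.67). They included the proteases FTSH1 and FTSH8 (60.1% and 59.0% lower, log2 differences -1.33 at adjusted p = 9.42e-04 and -1.30 at adjusted p = 0.00180) and the kinase STN7 (47.5% lower, -0.94 at adjusted p = 2.17e-04).

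Starch degradation genes were mostly higher at 240 min, in the light. Of 20 genes 11 rose and 3 fell (median 0.81), and the number that fell was 1 without 0 min replicate 1, and the counts in WS were 11 and 2. ISA3, the isoamylase that debranches starch for breakdown, had 53.9, 61.5 and 17.0 RPKM at 240 min, against 1.87, 2.13 and 1.81 RPKM at 0 min (22.8-fold higher, log2 3.75 ± 0.47, adjusted p = 1.42e-06). SEX4, the phosphatase that removes phosphate from glucans, had 99.9, 120.3 and 67.0 RPKM at 240 min, against 9.44, 10.4 and 8.19 RPKM at 0 min (10.2-fold higher, log2 3.19 ± 0.46, adjusted p = 9.54e-06). PHS2, a glucan phosphorylase of the cytosol, had 259, 466 and 204 RPKM at 240 min, against 12.4, 30.3 and 12.1 RPKM at 0 min (log2 4.05 ± 0.69, adjusted p = 8.07e-05), and AMY3 and DPE1, a plastid amylase and a disproportionating enzyme chosen after their values were seen, were 7.51-fold and 10.1-fold higher (log2 differences 2.98 at adjusted p = 1.54e-04 and 2.87 at adjusted p = 7.26e-04). GWD1, the dikinase that phosphorylates starch, was 8.15-fold higher, with 138, 283 and 113 RPKM at 240 min, against 23.0, 21.7 and 20.9 RPKM at 0 min (log2 2.85 ± 0.45, adjusted p = 2.96e-05). Replicate 2 was the highest and replicate 3 the lowest leaf of 240 min in these 6 genes, without overlap with 0 min. BAM9, a beta-amylase family member without known activity, went the other way and was next to LHY the largest fall of all genes, with 0.50, 0.780 and 3.40 RPKM at 240 min, against 176, 51.1 and 376 RPKM at 0 min (log2 -6.06 ± 0.61, adjusted p = 8.85e-08). BAM9 differed by -6.83 without 0 min replicate 2 and -5.40 without 0 min replicate 3. Of 19 starch synthesis genes 6 rose and 1 fell. The study places GWD1 under starch synthesis, so the counts for synthesis and degradation need not be of separate genes. APL2, a regulatory subunit of ADP-glucose pyrophosphorylase, had 21.1, 21.1 and 12.04 RPKM at 240 min, against 2.98, 3.02 and 2.88 RPKM at 0 min (log2 2.23 ± 0.31, adjusted p = 5.82e-06). BE3, a branching enzyme, had 56.8, 91.3 and 26.5 RPKM at 240 min, against 13.1, 8.32 and 10.2 RPKM at 0 min (log2 2.21 ± 0.38, adjusted p = 9.00e-05). BE1, an alpha-amylase family gene related to branching enzymes, had 14.0, 14.4 and 14.9 RPKM at 240 min, against 0.170, 1.39 and 0.50 RPKM at 0 min (log2 3.26 ± 0.53, adjusted p = 4.80e-05). GBSS1, the granule-bound synthase of amylose, chosen after its values were seen, had 35.99, 39.5 and 95.1 RPKM at 240 min, against 825, 187 and 1210 RPKM at 0 min (log2 -3.45 ± 0.71, adjusted p = 6.19e-04), with replicate 2 of 0 min much the lowest of its group. GBSS1 differed by -4.25 without 0 min replicate 2.

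Sucrose synthesis had 5 of 18 tested genes lower and 1 higher (median -0.13), and the number that rose was 0 without 0 min replicate 1 or 240 min replicate 1 and 5 with TPM, where the median was above 0. UGP2, a UDP-glucose pyrophosphorylase, had 20.3 ± 7.61 RPKM at 240 min, against 51.7 ± 9.98 RPKM at 0 min (log2 -1.37 ± 0.24, adjusted p = 9.81e-05). PFPB2, a subunit of the pyrophosphate-dependent phosphofructokinase, was 54.0% lower (log2 difference -1.12 at adjusted p = 0.00220). Of genes the study names, SPP2 (-1.03 at adjusted p = 5.25e-04), SPSC (-1.35 at 0.0135), TPT (-1.39 at 0.00112) and ALDH11A3 (-1.20 at 8.46e-05) were lower. The study places SPP2 and SPSC under sucrose synthesis, so their falls need not be separate from those counted above. SPSC lost its call without 0 min replicate 1, 0 min replicate 3 or 240 min replicate 1. AT3G52990 (1.32 at adjusted p = 2.50e-05) and AT5G51570 (2.27 at 5.92e-05) were higher, and RRTF1 and AT5G63680 were not past the test. Of 25 sugar and metabolite transporters 7 rose and 2 fell, and the number that rose was 4 without 240 min replicate 2 or 0 min replicate 3. STP13, a hexose importer of the plasma membrane, had 70.4, 74.97 and 16.6 RPKM at 240 min, against 0.880, 1.37 and 0.460 RPKM at 0 min (log2 4.61 ± 0.81, adjusted p = 1.10e-04). STP13 differed by 5.30 without 240 min replicate 3. SWEET12, a sucrose exporter of the phloem, had 21.2, 33.8 and 27.4 RPKM at 240 min, against 3.31, 0.560 and 10.2 RPKM at 0 min (log2 2.73 ± 0.55, adjusted p = 4.96e-04). SWEET12 differed by 2.01 without 0 min replicate 2 and 3.43 without 0 min replicate 3. TMT1, a sugar importer of the vacuole, had 8.60 ± 2.49 RPKM at 240 min, against 1.997 ± 0.497 RPKM at 0 min (log2 1.66 ± 0.32, adjusted p = 2.88e-04). GPT2, the glucose 6-phosphate transporter of the envelope on which the study centred, had 71.0, 7.99 and 24.3 RPKM at 240 min, against 0.430, 0.0700 and 1.08 RPKM at 0 min (log2 4.11 ± 0.60, adjusted p = 1.20e-05), so the leaves of 240 min differed widely and none overlapped with 0 min. GPT2 differed by 3.36 without 240 min replicate 1 and 4.86 without 240 min replicate 2. By quantitative PCR, the study saw no rise of GPT2 in plants kept in the chamber at growth light, a control that the series lacks. PPT2, a phosphoenolpyruvate transporter of plastids, had 12.8, 23.57 and 35.2 RPKM at 240 min, against 128, 83.1 and 92.6 RPKM at 0 min (log2 -2.12 ± 0.34, adjusted p = 3.95e-05). The chloroplast oxidative pentose phosphate genes had 0 higher and 0 lower of 6 (median -0.11, above 0 with TPM), and the number that fell was 1 without 0 min replicate 2 or 0 min replicate 3. The glucose 6-phosphate dehydrogenases G6PD1, G6PD2 and G6PD3 had log2 differences of -1.13 at adjusted p = 0.0706, -0.68 at adjusted p = 0.0750 and 0.41 at adjusted p = 0.403. Of 8 trehalose-phosphate synthase genes 4 fell and 0 rose (median -0.85), and the number that fell was 1 without 240 min replicate 1 and 2 without 0 min replicate 2 or 240 min replicate 2 or with TPM, and TPS6 was at 3.94 ± 0.928 RPKM at 240 min, against 8.57 ± 1.16 RPKM at 0 min (log2 -0.96 ± 0.22, adjusted p = 0.00162). Of 9 genes of the low-energy response 2 rose and 1 fell, beside 17.0% and 13.1% of all genes. The number that rose was 1 without 240 min replicate 1 or with voom, and the number that fell was 2 without 0 min replicate 3 and 3 without 0 min replicate 1.

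Nitrogen and sulfur genes passed the test in shares not far from the 17.0% of all genes that rose and the 13.1% that fell. Of 15 nitrate and ammonium genes 2 rose and 3 fell. GLN1.1, a glutamine synthetase of the cytosol, had 186, 85.9 and 50.9 RPKM at 240 min, against 5.16, 9.15 and 7.62 RPKM at 0 min (log2 3.54 ± 0.75, adjusted p = 8.16e-04). Its relative GLN1.2 had 105, 115 and 190.0 RPKM at 240 min, against 339, 410.0 and 417 RPKM at 0 min (log2 -1.54 ± 0.26, adjusted p = 5.31e-05). NIA2, the main nitrate reductase, had 47.1, 75.7 and 198 RPKM at 240 min, against 467, 335 and 436 RPKM at 0 min (log2 -2.18 ± 0.47, adjusted p = 8.36e-04). ASN2, an asparagine synthetase, had 28.9 ± 6.60 RPKM at 240 min, against 90.0 ± 7.03 RPKM at 0 min (log2 -1.63 ± 0.42, adjusted p = 0.00457). Of 16 sulfate assimilation genes 2 rose and 3 fell, and the number that fell was 1 without 240 min replicate 1 or 0 min replicate 3. APR2, the reductase that controls the pathway, had 27.5, 38.2 and 54.2 RPKM at 240 min, against 213, 225 and 604 RPKM at 0 min (log2 -2.96 ± 0.64, adjusted p = 9.37e-04). GSH2, which completes glutathione, had 80.3, 62.7 and 51.1 RPKM at 240 min, against 18.1, 14.97 and 24.4 RPKM at 0 min (log2 1.71 ± 0.29, adjusted p = 7.56e-05). GGCT2.1, which breaks glutathione down, had 109, 24.0 and 102 RPKM at 240 min, against 1.47, 8.64 and 9.24 RPKM at 0 min (log2 3.39 ± 0.76, adjusted p = 0.00127). GGCT2.1 differed by 2.72 without 0 min replicate 1 and 4.09 without 240 min replicate 2. In GLN1.1 and GLN1.2, as in APR2 and GSH2, the leaves of the 2 times did not overlap, and the members of each pair moved in opposite directions.

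Entry genes of phenylpropanoid synthesis were lower at 240 min. All 5 entry genes that passed the floor, of a list of 8, fell (median -2.26), as did 4 in WS. PAL2, a phenylalanine ammonia-lyase of the first step, had 19.4, 11.4 and 25.2 RPKM at 240 min, against 228, 82.1 and 183 RPKM at 0 min (88.6% lower, log2 -3.01 ± 0.44, adjusted p = 1.11e-05). PAL1 had 26.1, 18.19 and 27.4 RPKM at 240 min, against 220.2, 48.6 and 146 RPKM at 0 min (log2 -2.26 ± 0.59, adjusted p = 0.00454). PAL1 differed by -2.88 without 0 min replicate 2. C4H, the hydroxylase of the next step, had 39.4, 24.3 and 33.8 RPKM at 240 min, against 231, 69.5 and 161 RPKM at 0 min (log2 -2.07 ± 0.47, adjusted p = 0.00141). 4CL1, a coumarate:CoA ligase, had 18.5, 23.1 and 21.6 RPKM at 240 min, against 134, 71.8 and 104 RPKM at 0 min (log2 -2.20 ± 0.29, adjusted p = 2.51e-06). Replicate 2 of 0 min was the lowest leaf of its group in all 4 genes, above every leaf of 240 min. Of 14 flavonoid and anthocyanin enzymes tested 5 fell and 0 rose, and the number that fell was 2 without 0 min replicate 1 and 3 without 240 min replicate 1, 240 min replicate 2 or 0 min replicate 3. CHIL, a chalcone isomerase-like protein, was among the 10 largest falls of all genes, with 6.97, 2.25 and 3.81 RPKM at 240 min, against 267, 44.5 and 123 RPKM at 0 min (log2 -4.52 ± 0.86, adjusted p = 2.58e-04). CHIL differed by -3.91 without 0 min replicate 1 and -5.19 without 0 min replicate 2. MYB75, an activator of anthocyanin genes, went the other way, with 32.2, 45.9 and 30.3 RPKM at 240 min, against 2.24, 1.52 and 0.470 RPKM at 0 min (log2 4.0 ± 0.89, adjusted p = 0.00128), and its call was lost with voom. Of 11 regulators tested 1 rose and 1 fell, beside 17.0% and 13.1% of all genes, and the number that rose was 0 with voom and 2 without 240 min replicate 2. Of 26 glucosinolate genes 5 rose and 0 fell (median 0.80), with a share of rises near the 17.0% of all genes. The number that rose was 2 without 0 min replicate 1 or 240 min replicate 2 and 10 with TPM. CYP79B2, which turns tryptophan into the precursor of indole glucosinolates, had 56.3, 76.7 and 35.3 RPKM at 240 min, against 6.76, 5.68 and 14.6 RPKM at 0 min (log2 2.55 ± 0.57, adjusted p = 0.00133).

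Of 12 heat shock genes tested 1 rose and 4 fell (median -1.12), beside 17.0% and 13.1% of all genes, and the number that fell was 1 with voom. HSC70-1, the abundant cytosolic Hsp70, had 627, 477 and 356 RPKM at 240 min, against 1190, 1041 and 1409 RPKM at 0 min (log2 -1.34 ± 0.35, adjusted p = 0.00474). BAG6, a cochaperone, had 3.36, 3.98 and 2.53 RPKM at 240 min, against 0.280, 0.350 and 0.360 RPKM at 0 min (log2 1.68 ± 0.36, adjusted p = 8.63e-04). Of 24 antioxidant genes 7 rose and 3 fell (median 0.12), beside the same shares of all genes. APX1, the cytosolic ascorbate peroxidase, had 626, 729.9 and 353 RPKM at 240 min, against 169, 224 and 152 RPKM at 0 min (log2 1.60 ± 0.33, adjusted p = 5.62e-04). VTC2, which commits sugars to ascorbate synthesis, had 121, 334 and 443 RPKM at 240 min, against 2056, 804 and 2531 RPKM at 0 min (log2 -2.62 ± 0.50, adjusted p = 2.87e-04). GR2, the glutathione reductase of plastids, was 46.8% lower (log2 difference -0.92 at adjusted p = 0.00159). Of 9 genes of alternative respiration 1 rose (2 with TPM) and 1 fell. They were AOX1A, the alternative oxidase, with 38.5 ± 2.72 RPKM at 240 min, against 18.19 ± 2.1 RPKM at 0 min (log2 1.04 ± 0.30, adjusted p = 0.00970), and NDA1, a NAD(P)H dehydrogenase of mitochondria, with 36.4, 41.5 and 80.1 RPKM at 240 min, against 277, 198 and 321 RPKM at 0 min (log2 -2.37 ± 0.33, adjusted p = 5.56e-06).

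Of 19 light signalling genes 8 fell and 0 rose (median -0.88), and the number that fell was 3 without 240 min replicate 1, 4 without 0 min replicate 1 or 240 min replicate 2 and 5 with TPM. The number that rose was 1 without 0 min replicate 2 or with TPM. PIF5, a bHLH factor that phytochromes degrade, had 15, 18.6 and 26.5 RPKM at 240 min, against 74.5, 74.9 and 47.9 RPKM at 0 min (log2 -1.67 ± 0.34, adjusted p = 4.57e-04). COP1, the ubiquitin ligase of light signalling, was 47.8% lower (log2 difference -0.88 at adjusted p = 0.00104). B-box factors, zinc finger proteins of light and clock outputs, split: of 16 tested 3 rose and 9 fell (median -1.26), and the number that fell was 4 without 240 min replicate 1. BBX22 had 63.2, 48.6 and 52.0 RPKM at 240 min, against 0.890, 4.90 and 1.12 RPKM at 0 min (log2 4.27 ± 0.68, adjusted p = 3.51e-05). BBX8 had 28.8, 29.3 and 6.33 RPKM at 240 min, against 1.29, 1.17 and 2.85 RPKM at 0 min (log2 2.81 ± 0.38, adjusted p = 4.88e-06). BBX8 differed by 3.49 without 240 min replicate 3. BBX16 had 6.06, 12.6 and 32.4 RPKM at 240 min, against 162, 134 and 165 RPKM at 0 min (log2 -3.39 ± 0.38, adjusted p = 3.54e-07). BBX16 differed by -3.98 without 240 min replicate 3. In BBX8 and BBX16 replicate 3 of 240 min was the leaf nearest to 0 min, as in the clock genes, while BBX22 was even among the leaves of 240 min.

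Some genes of cell walls and of water channels were lower. Of 22 wall loosening and cellulose genes 6 fell and 0 rose (median -0.77). XTH6, a xyloglucan endotransglucosylase that remodels walls, had 16.5, 16.8 and 44.1 RPKM at 240 min, against 227, 316 and 282 RPKM at 0 min (log2 -3.50 ± 0.77, adjusted p = 0.00105). EXPA8, an expansin, had 2.67, 1.2 and 8.43 RPKM at 240 min, against 41.5, 195 and 27.6 RPKM at 0 min (log2 -3.87 ± 0.97, adjusted p = 0.00334). EXPA8 differed by -3.04 without 0 min replicate 2. Of 19 aquaporin genes tested, taken by product name after results had been seen, 8 fell and 0 rose (median -1.19), and the number that fell was 5 without 240 min replicate 1 while 1 rose with TPM. PIP1;5, a water channel of the plasma membrane, had 18.02, 27.9 and 23.4 RPKM at 240 min, against 150.04, 206 and 202 RPKM at 0 min (87.6% lower, log2 -2.96 ± 0.33, adjusted p = 3.11e-07). PIP1C had 17.1, 29.8 and 23.9 RPKM at 240 min, against 176, 133 and 172 RPKM at 0 min (log2 -2.73 ± 0.49, adjusted p = 1.25e-04). PIP1B had 190.2, 449 and 537 RPKM at 240 min, against 1413, 882 and 1588 RPKM at 0 min (log2 -1.81 ± 0.34, adjusted p = 2.73e-04). The leaves of each time were close together in PIP1;5 and PIP1C, without overlap between the times. Of 23 plastid fatty acid genes 3 rose and 5 fell, beside 17.0% and 13.1% of all genes. The number that rose was 1 without 0 min replicate 1, 240 min replicate 1, 0 min replicate 2, 240 min replicate 2 or 0 min replicate 3, and the number that fell was 3 without 0 min replicate 1. Of 17 wax genes 2 fell, near the share of all genes. The number of wax genes that fell was 0 without 0 min replicate 1, 240 min replicate 1, 0 min replicate 2 or 240 min replicate 3, 1 without 0 min replicate 3 or with TPM and 5 without 240 min replicate 2.

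Other genes among the 10 largest falls had no shared list. AT2G41250, annotated as a haloacid dehalogenase-like hydrolase, had 1.56, 2.2 and 6.99 RPKM at 240 min, against 104, 105 and 93.6 RPKM at 0 min (log2 -4.66 ± 0.40, adjusted p = 1.34e-08). AT1G55960, a polyketide cyclase-like protein, had 9.81, 19.9 and 68.1 RPKM at 240 min, against 658, 410.4 and 683 RPKM at 0 min (log2 -4.51 ± 0.47, adjusted p = 1.47e-07). AT1G55960 differed by -3.91 without 240 min replicate 1 and -5.24 without 240 min replicate 3. GASA6, a gibberellin-regulated protein, had 4.43, 5.39 and 3.55 RPKM at 240 min, against 50.6, 312 and 79.9 RPKM at 0 min (log2 -4.34 ± 0.91, adjusted p = 6.92e-04), with replicate 2 the highest leaf of 0 min. GASA6 differed by -3.58 without 0 min replicate 2. The annotation used here names AT5G05250 and AT2G30766 only as uncharacterized proteins. AT5G05250 had 1.0, 2.51 and 0.540 RPKM at 240 min, against 125, 16.2 and 149 RPKM at 0 min (log2 -4.96 ± 1.01, adjusted p = 5.29e-04). AT2G30766 had 1.18, 0.620 and 1.31 RPKM at 240 min, against 102, 10.02 and 78.5 RPKM at 0 min (log2 -4.48 ± 1.04, adjusted p = 0.00180). AT5G05250 differed by -5.96 without 0 min replicate 2. AT2G30766 differed by -3.88 without 0 min replicate 1 and -5.49 without 0 min replicate 2. Replicate 2 was the lowest leaf of 0 min in both, as in the iron genes, and both calls were lost with voom. AT1G13609, a defensin-like gene, was listed at 0 in all 3 libraries of 240 min and had 30.7, 16.4 and 177 RPKM at 0 min (log2 -5.53 ± 1.09, adjusted p = 3.89e-04). AT1G13609 differed by -6.23 without 0 min replicate 2 and -4.55 without 0 min replicate 3.

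**Figure D4:**
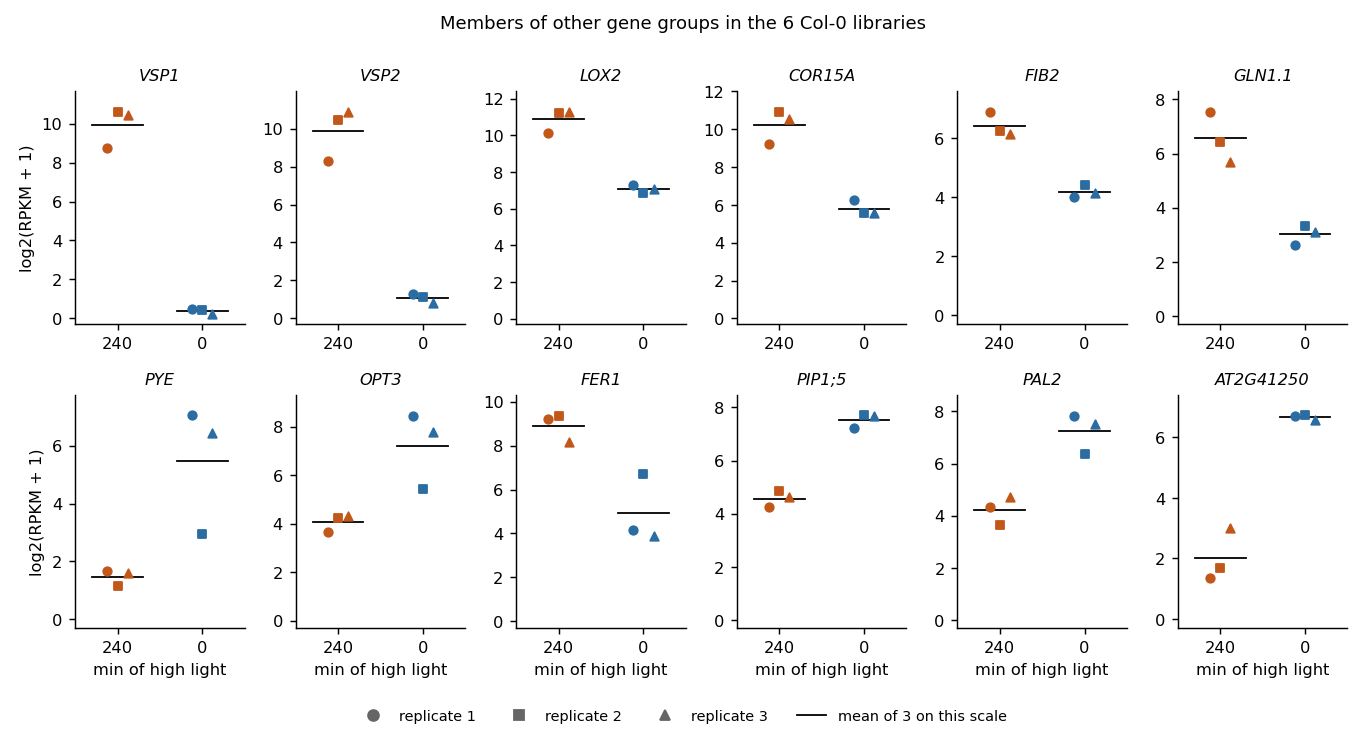
log2(RPKM + 1) of 12 genes of the other groups in the 3 libraries of 240 min (left in each panel) and the 3 of 0 min (right), 1 point a library with the replicate number as its marker and a bar at the group mean. VSP1, VSP2, LOX2, COR15A, FIB2, GLN1.1 and FER1 are high at 240 min, and PYE, OPT3, PIP1;5, PAL2 and AT2G41250 are low, with no overlap between the times in any panel.

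To see which of these changes were still under way, the leaves of 240 min were set against those of 120 min. In this step 917 genes (6.64% of 13817) were higher at 240 min and 803 (5.81%) were lower, together 12.4%. The count was not stable. Col-0 120 min replicate 1 stood closer to the leaves of 240 min than to its own group, and without it 4120 genes differed. Without 120 min replicate 2 there were 789, without 120 min replicate 3 179, without 240 min replicate 2 539 and without 240 min replicate 3 948, and with the Col-0 libraries alone 406. BCH2 was at 10.6 ± 6.84 RPKM at 240 min, against 220.1 ± 157 RPKM at 120 min (log2 difference -4.05, SE 0.64, adjusted p = 4.56e-04). GBSS1 was at 56.9 ± 33.1 RPKM at 240 min, against 763 ± 636 RPKM at 120 min (log2 difference -3.47, SE 0.71, adjusted p = 0.00390), and PRR5 and GRP7, chosen after their values were seen, went up in the same step. PRR5 was at 45.6 ± 36.1 RPKM at 240 min, against 2.2 ± 1.46 RPKM at 120 min (log2 difference 3.37, SE 0.61, adjusted p = 0.00173). GRP7 was at 1310 ± 1116 RPKM at 240 min, against 45.3 ± 52.0 RPKM at 120 min (log2 difference 4.42, SE 0.80, adjusted p = 0.00173). Among the rises with the smallest adjusted p, CXXS1, a thioredoxin-like protein, was at 36.8 ± 7.94 RPKM at 240 min, against 7.02 ± 3.40 RPKM at 120 min (log2 difference 2.31, SE 0.28, adjusted p = 1.01e-04). AT1G07050, a CCT motif gene, was at 51.2 ± 38.1 RPKM at 240 min, against 1.03 ± 0.841 RPKM at 120 min (log2 difference 4.24, SE 0.58, adjusted p = 2.58e-04). Among the falls MAT3, a methionine adenosyltransferase, was at 169.8 ± 10.3 RPKM at 240 min, against 425 ± 103 RPKM at 120 min (log2 difference -1.29, SE 0.20, adjusted p = 4.11e-04). With replicate number 2 left out of every group 0 genes passed with limma, and 1897 had an unadjusted p under 0.05. The nucleolar list had 0 higher and 7 lower genes in this step, and the jasmonate list had 0 higher and 3 lower with a median of -1.66.

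**Figure D5:**
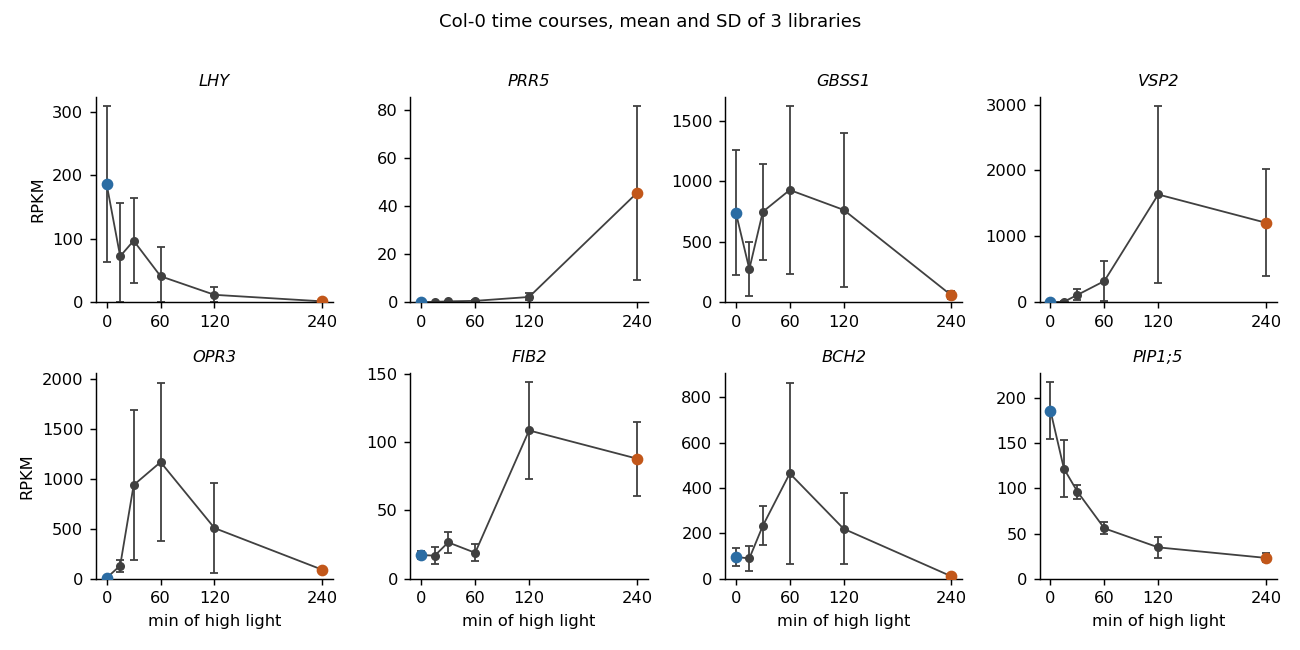
Mean RPKM of 8 Col-0 genes over 240 min of raised light, at 6 times (points joined by lines, bars of 1 SD over 3 libraries, lower ends drawn no lower than 0). LHY falls and PRR5 rises over the course, GBSS1 and BCH2 are low at 240 min after high values before it, and the mean of OPR3 at 240 min lies below its mean at 120 min.

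The same contrast in WS, which shares no library with that of Col-0, gave 2004 higher (14.5%) and 1397 lower genes (10.1%). The test of a different response in the ecotypes called few genes, which does not show that the others responded alike. Reads of both ecotypes were mapped to the same TAIR10 genome, and the effect of sequence differences between the ecotypes on these values was not tested. The change at 240 min was greater in Col-0 than in WS for 6 genes (0.0434% of 13817) and less for 7 (0.0507%), together 0.0941%, with 658 genes at an unadjusted p under 0.05. The count was 21 with the replicate number as a block, 41 without a filter on low values and 7 with voom. It was 23 without Col-0 0 min replicate 2, 24 without WS 240 min replicate 1, 7 without Col-0 0 min replicate 1, 8 when WS 0 min replicate 2 was left out and 7 when this was WS 240 min replicate 3. PAI1, a phosphoribosylanthranilate isomerase of tryptophan synthesis, had 3.47 ± 0.532 RPKM at 240 min and 0.993 ± 0.112 RPKM at 0 min in Col-0, against 5.11 ± 0.200 RPKM at 240 min and 6.46 ± 2.87 RPKM at 0 min in WS (difference in log2 change 1.38, SE 0.27, adjusted p = 0.0279). DYL1, a dormancy-associated protein, had 1.77 ± 0.767 RPKM at 240 min and 1.82 ± 0.122 RPKM at 0 min in Col-0, against 5.54 ± 2.56 RPKM at 240 min and 0.777 ± 0.316 RPKM at 0 min in WS (difference in log2 change -1.89, SE 0.35, adjusted p = 0.0169). AT5G39790 had 40.1 ± 3.02 RPKM at 240 min and 4.04 ± 3.23 RPKM at 0 min in Col-0, against 31.4 ± 3.26 RPKM at 240 min and 20.9 ± 4.87 RPKM at 0 min in WS (difference in log2 change 2.63, SE 0.40, adjusted p = 0.00245). The call of AT5G39790 held with any 1 library of either contrast left out. That of DYL1 was lost with voom and without Col-0 0 min replicate 1, Col-0 240 min replicate 1 or 3, WS 0 min replicate 1 or 2 or WS 240 min replicate 3. That of PAI1 was lost with TPM and without Col-0 0 min replicate 1 or 3, Col-0 240 min replicate 1 or 3, WS 0 min replicate 1 or WS 240 min replicate 2 or 3.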

How the data were processed

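Transcript amounts were measured by single-end RNA sequencing of stranded, poly(A)-selected libraries, 1 leaf a library. Per the methods and the submitters' processing notes, the authors trimmed reads with Trimmomatic 0.32, inspected their quality with FastQC, mapped them with STAR 2.3.0e to the TAIR10 genome, used featureCounts for the counts of each gene and deposited RPKM, which is the unit of every value here. The sources used here do not give the strand setting, the annotation release or the treatment of multi-mapped reads.

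An RPKM value is relative to a divisor of its library, and this divisor was not the reads in genes alone. Recovered from the RPKM steps and divided by those reads, it was 1.278, 1.071 and 1.089 at 240 min and 0.916, 1.006 and 1.022 at 0 min. Scaling factors by the trimmed mean of M values, which correct for a gain by abundant genes, were close to it (1.279, 1.070 and 1.089, and 0.914, 1.004 and 1.023). The TPM setting takes this scaling out. At a depth of 14.8 to 31.8 M reads in genes over the 6 libraries, low values rest on few reads. Of the 323 to 744 low RPKM values checked in each library, 99.7% or more were within 0.1 of a whole number of reads, and the recovered reads were tested with voom as an alternative, which called 2168 genes higher and 1802 lower.

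limma 3.58.1 in R 4.3.3 was fitted to log2(RPKM + 1) with a variance trend, over 36 libraries in 12 groups with a mean for each and no covariate (24 residual and 27 total degrees of freedom), with Benjamini-Hochberg adjustment over 13817 genes and a threshold of 0.05. The 3 contrasts were Col-0 240 min against 0 min, Col-0 240 min against 120 min, and the difference of the first from the same contrast in WS. Log2 differences on this scale understate the changes of low genes. Python 3.11.15 was used for tables. The fit was tested on simulated data. Of 37336 gene identifiers 37051 matched the reference annotation and 285 did not, and 0 columns of the table were left out. The title of the 30 min samples was used for their time, where another label gave 20.

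Named genes were the 10 largest log2 differences in each direction among called genes without overlap, the 6 largest gains and losses in RPKM, up to 5 members of each of 50 lists by adjusted p, the 5 smallest adjusted p in each direction of the further contrasts, the genes the study names, and any member of the clock lists and of lists of up to 12 genes. The 4 lists of iron, ribosomal, proteasome and aquaporin genes, their members, and genes said to be so were chosen after the values had been seen. The members and lists were chosen with earlier results of these data known.

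The same plants were sampled at each time, but the main fit took all leaves as independent. Pairing by replicate number was checked only for 240 against 0 min. Col-0 correlations were -0.198, -0.002 and -0.075 for replicates 1, 2 and 3. Those of WS were 0.086, -0.264 and 0.320, within the range of its unmatched numbers (-0.405 to 0.355). Because these were not steadily positive, no block was used. So few pairs cannot show that the leaves were independent. With the block, calls rose from 2349 to 2570 higher and from 1807 to 2067 lower genes. Nothing in the sources gives the replicate number as that of a plant, and p-values measure the spread among these leaves. Alternatives covered the pseudocount (0.1), filters, scalings, the trend, the block, fewer libraries and each library left out.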

Additional observations from a re-analysis of the deposited data

Results flagged for a closer look

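The change between 0 and 240 min differed between the ecotypes, by the test of the difference itself, in 10 genes listed by the rule on further comparisons, and no explanation was tested. The difference in log2 change, Col-0 minus WS, was 3.58 for AT5G44575, with 10.99 RPKM at 240 min and 0.227 RPKM at 0 min in Col-0 and 13.2 RPKM at 240 min and 17.77 RPKM at 0 min in WS. It was 2.63 for AT5G39790, with 40.1 RPKM at 240 min and 4.04 RPKM at 0 min in Col-0 and 31.4 RPKM at 240 min and 20.9 RPKM at 0 min in WS. It was 1.72 for AT2G16710, with 19.9 RPKM at 240 min and 4.92 RPKM at 0 min in Col-0 and 21.1 RPKM at 240 min and 19.4 RPKM at 0 min in WS. In AT5G44575, AT5G39790 and AT2G16710 the transcript was low in Col-0 at 0 min and already high in WS at that time. PAI1 had 1.38 and DYL1 -1.89, with the values given above. The difference was -2.12 for AT4G13100, with 9.26 RPKM at 240 min and 13.9 RPKM at 0 min in Col-0 and 6.55 RPKM at 240 min and 1.53 RPKM at 0 min in WS. That of -2.11 for AT5G60580, with 3.24 RPKM at 240 min and 4.82 RPKM at 0 min in Col-0 and 7.56 RPKM at 240 min and 1.66 RPKM at 0 min in WS, was close to it. AT1G55890 rose in both ecotypes, with a difference of -1.28, with 18.7 RPKM at 240 min and 11.9 RPKM at 0 min in Col-0 and 17.84 RPKM at 240 min and 4.16 RPKM at 0 min in WS. AT3G28320 and AT5G04815 were near 0 in Col-0 at both times, and the difference was -3.38 for AT3G28320, with 0.0833 RPKM at 240 min and 0.0433 RPKM at 0 min in Col-0 and 17.3 RPKM at 240 min and 0.373 RPKM at 0 min in WS, and 2.72 for AT5G04815, with 0.113 RPKM at 240 min and 0.0233 RPKM at 0 min in Col-0 and 2.097 RPKM at 240 min and 17.5 RPKM at 0 min in WS.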

How the results depend on the processing

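Of 273 named genes that had changed, 210 kept their call under all 11 alternatives that keep all 6 libraries, 131 kept it under every alternative including those that leave out libraries, and 0 reversed. Of these 11, fitting the 6 libraries alone lost the most calls, 32, followed by voom with 21, the Col-0 libraries alone with 19, no filter with 17 and TPM with 12. Leaving out libraries lost 16 to 105 calls, the most without replicate 1 of every group. With replicates or single libraries left out, the higher genes were 1254 to 2061 and the lower genes 745 to 1722. Genes that differed between 240 and 120 min were 0 to 4120 with replicates left out and 406 with Col-0 libraries alone. Genes whose change differed between the ecotypes were 0 to 24 with replicates left out (0 without replicate 3 of every group with limma, where 438 had an unadjusted p under 0.05), 27 with a filter of 1 RPKM in 3 libraries, 41 without a filter, 5 with a filter on the 6 libraries and 7 with voom. The causes were not tested.

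With the replicate number as a block, 2570 genes were higher and 2067 lower, 2529 differed between 240 and 120 min, and 21 differed between the ecotypes. The block lost the calls of 3 named genes. The numbers are not shown to pair the leaves. The filters on 7 RPKM in 6 libraries and 1 RPKM for the further contrasts, and the single libraries of 120 min and of WS left out, were chosen after seeing the data. A pseudocount of 1 limits what can be said of genes under about 1 RPKM.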
